A study of Mus musculus with 6 samples.

Results

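The genes described here are the myeloid growth factors Csf1, Csf2, Csf3, Il34 and Kitl and the receptor chains Csf1r, Csf2ra, Csf2rb and Csf3r. They were chosen by name, by a rule with no threshold on measured values but with earlier results of these data known. All 9 were found by Ensembl identifier among the 45706 genes of the table. Transcripts were measured by RNA sequencing in lung fibroblasts of wild-type mice. Both groups were grown alike, from collagenase-digested and trypsinised lung tissue plated in serum-containing medium and detached after 7 days. The treated group (3 libraries) had recombinant mouse DKK1, a secreted antagonist of Wnt signalling, at 30 ng/ml for 24 h, and the other group (3 libraries) is labelled control. The labels do not name a vehicle, the strain, age or sex of the mice, how many animals gave the cells, or how the detached cells were purified. P-values therefore measure only the spread between these libraries, which may be technical.

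Myeloid growth factors keep blood cells of the myeloid lines alive and make them divide. CSF1 and IL-34 share the receptor tyrosine kinase CSF1R, on which tissue macrophages depend. CSF2 (GM-CSF) binds CSF2RA, which signals together with the common beta chain CSF2RB, CSF3 (G-CSF) binds CSF3R on neutrophils and their precursors, and KITL (stem cell factor) binds KIT on mast cells and blood progenitors. Fibroblasts are a known source of CSF1 in tissue, whereas CSF2 and CSF3 are mostly made after inflammatory stimulation.

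Sequences of 3 kinds bear on how these transcripts were made, lost and counted. The first is the Csf1 promoter, shown because Csf1 held nearly all counts of the family and because genes of the NF-kB pathway are among the inducers described further on. The 250 bases before the RefSeq start of Csf1 (GRCm38.p6, chr3:107760470-107760719, minus strand) hold 1 copy of the NF-kB consensus motif on the strand opposite to the gene. It lies at position -154 counted back from the start, and the capitals show it as read along the gene's own strand.
Csf1 promoter: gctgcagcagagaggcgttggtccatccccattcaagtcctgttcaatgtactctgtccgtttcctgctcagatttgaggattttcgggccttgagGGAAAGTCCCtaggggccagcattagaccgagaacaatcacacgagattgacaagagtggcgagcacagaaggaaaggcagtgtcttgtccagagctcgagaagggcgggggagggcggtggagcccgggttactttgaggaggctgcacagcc
Of 32851 RefSeq promoters of the same length, 46 (0.14%) hold this motif on either strand. The CK-1 motif GAGATTCC and the AP-1 motif TGANTCA, also searched on both strands, occur in 0.755% and 6.75% of them. None of these 3 motifs was found in the promoters of Csf2, Csf2ra, Kitl and Csf3r, the other members in the RefSeq table. Only the letters given were searched, so NF-kB sites of other forms were not counted, in these promoters or in the 0.14%. A match describes letters and is not evidence of binding.

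The second is the AU-rich stretch of Csf2, a run of overlapping ATTTA pentamers of the kind that ZFP36 proteins bind to shorten the life of cytokine mRNAs. The following 30 bases, from base 230 to base 259 after the stop codon of the GENCODE M21 transcript (GRCm38), hold 5 overlapping ATTTA copies, in capitals.
Csf2 AU-rich site: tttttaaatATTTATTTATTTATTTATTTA
The 317 bases after the stop codon of Csf2 held 9 ATTTA copies, and 5 of the longer motif ATTTATTTA that these overlap to form. Csf3 had 6 ATTTA copies in 669 bases, Csf1 4 in 2111 bases, Il34 1 in 605 bases and Kitl 14 in 4435 bases, and the receptors Csf2ra, Csf2rb and Csf3r had 0. The motif ATTTATTTA stood in the last 300 transcript bases of 260 of 17265 genes (1.51%), Csf2 among them.

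The third is a pair of stretches from the coding sequences of Csf2rb and of its neighbour Csf2rb2, which encodes a beta chain for the interleukin 3 receptor. They are shown because reads from some stretches can be assigned to one of them and reads from others cannot. Coding bases 19 to 138 of both (GENCODE M21) are printed with their 6 differing bases in capitals.
Csf2rb coding: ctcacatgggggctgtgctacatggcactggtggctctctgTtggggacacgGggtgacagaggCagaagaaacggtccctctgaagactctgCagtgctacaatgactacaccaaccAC
Csf2rb2 coding: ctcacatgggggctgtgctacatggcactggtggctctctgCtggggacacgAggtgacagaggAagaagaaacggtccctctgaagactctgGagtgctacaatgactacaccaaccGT
Coding bases 2083 to 2202, in contrast, hold 0 differences, so that a read from within them can come from either gene.
Csf2rb and Csf2rb2 shared: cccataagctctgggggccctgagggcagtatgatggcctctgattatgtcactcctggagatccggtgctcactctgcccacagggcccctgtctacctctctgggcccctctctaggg
Over the whole coding sequences (2691 bases in Csf2rb and 2637 in Csf2rb2), 2505 of 2631 aligned bases (95.2%) were identical, with a longest shared run of 242 bases. Of all 50-base windows of the Csf2rb coding sequence, 26% occur unchanged in Csf2rb2, and of all 100-base windows 11%.

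Levels are given as CPM, the counts of a gene per 1000000 counts of its library and computed from the deposited expected counts. The libraries held 22565917 to 34727102 counts. A count of 3, taken as the smallest signal, is worth from 0.0864 CPM (deepest library) to 0.133 CPM (shallowest library). Among the marker lists, the 8 fibroblast genes (Col1a1, Pdgfra and others) summed to 10582 to 12086 CPM in control libraries and 9960 to 11485 with DKK1. Replicate 3 of both groups stood apart. The 15 macrophage and monocyte markers, 14 of them with at least 3 counts in every library and Lyz2 the most abundant, summed to 431, 498 and 868 CPM in control replicates 1 to 3 and to 454, 499.6 and 884 CPM with DKK1. Epithelial, endothelial and mesothelial markers were likewise highest in replicate 3 of each group (35.2, 57.3 and 28.1 CPM in control, 38.2, 58.1 and 31.6 CPM with DKK1, against at most 14.3, 27.1 and 10.9 CPM in the other 4 libraries). In bulk RNA, fewer cells of a type and less RNA per cell cannot be told apart.

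Of the 9 members, 7 had enough counts to be tested and 2, Csf2 and Csf3r, did not. With the group as the only term, edgeR's quasi-likelihood test called 0 of the 7 at an adjusted p under 0.05, against 0.895% of all 14635 tested genes (131 genes), or 0.697% higher and 0.198% lower. None of the 7 had an unadjusted p under 0.05. DESeq2 and limma-voom also called 0 members, beside 2.04% and 0.888% of their tested genes. These shares are also the background of the lists below. The share of all tested genes with an unadjusted p under 0.05 is not given here, so counts at that threshold have no background. With the replicate number added to the edgeR model as a block, Csf2rb was higher with DKK1 and Csf1 and Csf1r were lower, so that 3 of 7 members were called, beside 9.42% of all tested genes (726 higher and 653 lower, 4.96% and 4.46%). In all 9 members the groups overlapped, whereas 16.5% of all tested genes had groups without overlap.

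**Figure D1:**
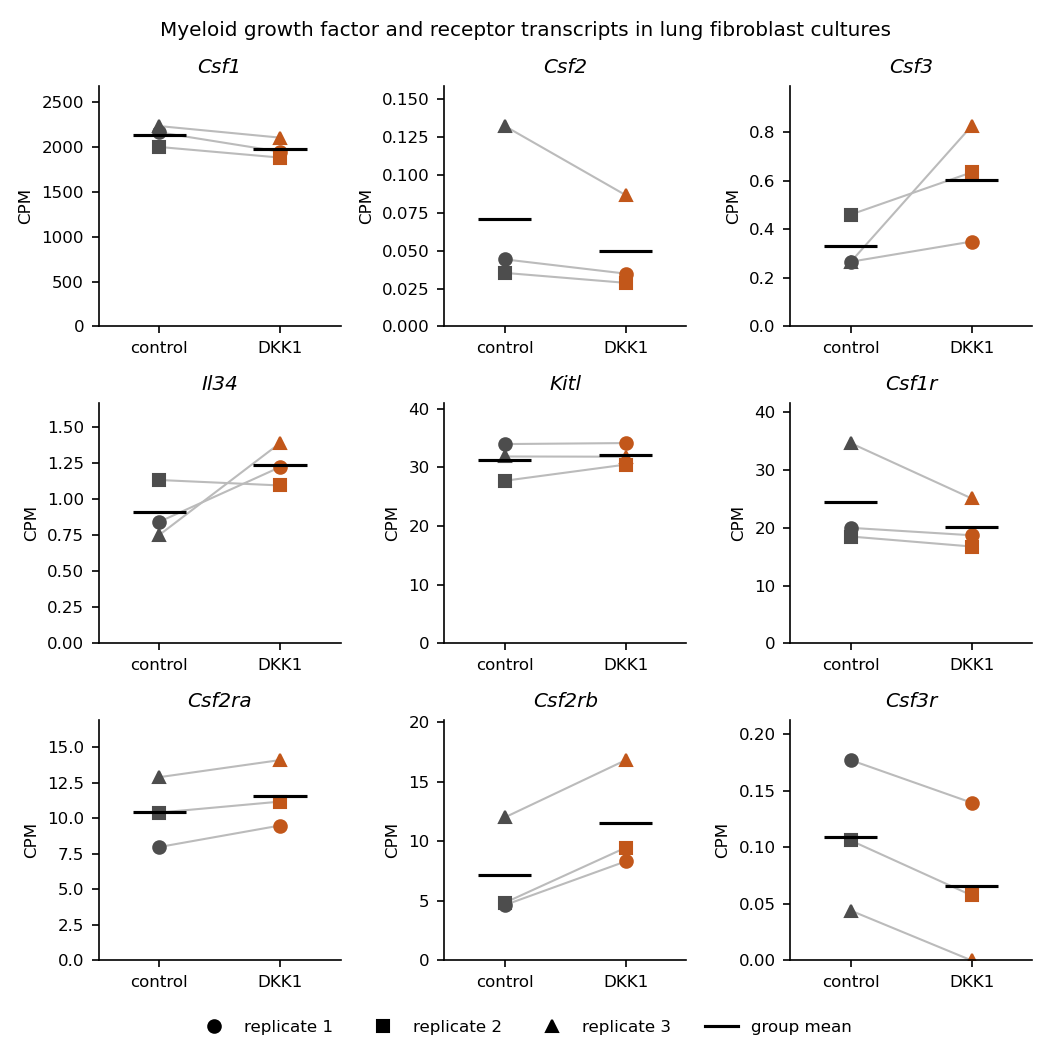
CPM of the 9 members in control and DKK1 libraries, on linear axes that start at 0, with symbols for the replicate number, grey lines joining the same number and black bars for the group means. Csf1 lies between 1884 and 2236 CPM, Csf2 and Csf3r lie at or below 0.177 CPM, and Csf1r and Csf2rb are highest in replicate 3 of both groups.

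Csf1 (ENSMUSG00000014599, chr3:107741048-107760469, minus strand) encodes the main macrophage growth factor and was by far the most abundant transcript of the family. Control libraries held 2166, 2003 and 2236 CPM in replicates 1 to 3, and DKK1 libraries 1950, 1884 and 2107 CPM. In all 3 same-numbered pairs the DKK1 library was the lower one, as in 19.5% of all tested genes, but DKK1 replicate 3 lay above control replicate 2, so the groups overlapped. The means were 2135 ± 120 and 1981 ± 114 CPM (SD, n = 3 each), or -0.11 on the log2 scale (SE 0.05, adjusted p by edgeR = 0.475). With the replicate block Csf1 fell by 7.57% (log2 fold change -0.11, SE 0.02, adjusted p = 0.000989). That call held with replicate 1, 2 or 3 left out of both groups, at adjusted p-values by edgeR of 3.16e-05, 0.0291 and 0.0055. Those fits keep 2 libraries per group and called 1312, 612 and 1059 genes. With so few libraries, p-values of such fits, here and below, lean on variance pooled over genes. They say little about the spread of a single gene. Of the 8 fibroblast markers, 0 were called with the group alone (edgeR; 2 had an unadjusted p under 0.05, DESeq2 called 1 and limma-voom 0), and with the block 4 were lower and 2 higher, beside 4.46% and 4.96% of all tested genes. Col1a1 (-0.10), Col1a2 (-0.13), Pdgfrb (-0.11) and Thy1 (-0.12) had log2 fold changes close to that of Csf1, and Dcn (0.62) and Pdgfra (0.27) were the higher ones; their part in the value of Csf1 was not tested.

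Il34 (ENSMUSG00000031750, chr8:110741829-110805924, minus strand), the second ligand of CSF1R, was detected at about 1 CPM. Its counts were 19, 32 and 17 in the control libraries and 35, 38 and 32 with DKK1, which is 0.842, 1.13 and 0.750 CPM against 1.22, 1.09 and 1.39 CPM. DKK1 values were higher in replicates 1 and 3 but not in replicate 2, where the values almost coincided. The log2 fold change was 0.41 (SE 0.25, adjusted p by edgeR = 0.646, and 0.449 with the block), and its 2-SE range of -0.0908 to 0.921 spans no change and a rise of nearly 1 log2 unit. The log2 fold change was 0.21 without replicate 3 of both groups, in either model, and 0.70 with the block and without replicate 2. The gene overlaps Gm15894 and Gm15895 on the opposite strand, and whether counting used strand is not given in the sources used here, so its low counts are uncertain.

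Csf3 (ENSMUSG00000038067, chr11:98701263-98703629, plus strand), the neutrophil growth factor, was rarer still. It had 6, 13 and 6 counts in control libraries and 10, 22 and 19 with DKK1, or 0.266, 0.4599 and 0.265 CPM against 0.349, 0.634 and 0.824 CPM. Each DKK1 library exceeded its same-numbered control, as in 22.3% of all tested genes, while DKK1 replicate 1 lay below control replicate 2. The log2 fold change of 0.81 (SE 0.42) did not pass the test (adjusted p by edgeR = 0.58, and 0.279 with the block). Only control replicate 2 and DKK1 replicates 2 and 3 had over 10 counts, so the gene passed the low-count filter through these 3 libraries. Without DKK1 replicate 3 and its control in the block fit the log2 fold change was 0.43.

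Csf2 (ENSMUSG00000018916, chr11:54247271-54249667, minus strand), which encodes GM-CSF, stood at the detection floor. Its counts were 1, 1 and 3 in control libraries and 1, 1 and 2 with DKK1, under 3 in 5 of the 6 libraries. A difference was not detectable at this depth (exact permutation test of CPM, two-sided, p = 0.5, where 3 against 3 cannot give less than 0.1). The gene overlaps Gm12223 on the opposite strand.

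Kitl (ENSMUSG00000019966, chr10:100015630-100100416, plus strand), the ligand of KIT, stood at 34.0, 27.7 and 31.9 CPM in control libraries and 34.2, 30.5 and 31.8 CPM with DKK1. The values of the groups lay within each other's range apart from the highest DKK1 and the lowest control library. The log2 fold change was 0.04 (SE 0.08, adjusted p by edgeR = 0.918, and 0.652 with the block). Its 2-SE range with the block, -0.0475 to 0.137, bounds the size of a change in either direction; the sign turned without control replicate 2 (-0.0379) and without DKK1 replicate 1 (-0.00621).

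Csf1r, the receptor of CSF1 and IL-34 (ENSMUSG00000024621), is a gene of macrophages. It was found at 20.0, 18.5 and 34.7 CPM in control libraries and at 18.7, 16.8 and 25.1 CPM with DKK1, highest in replicate 3 of both groups, as were the macrophage markers. The DKK1 value was the lower one in 3 of 3 same-numbered pairs, as in 19.5% of all tested genes, and the groups overlapped. The log2 fold change was -0.28 (SE 0.24, adjusted p by edgeR = 0.756). With the block Csf1r fell by 16% (log2 fold change -0.25, SE 0.07, adjusted p = 0.0364). That call was lost without replicate 2 of both groups (log2 fold change -0.30, adjusted p = 0.105) and without replicate 3 (-0.13, adjusted p = 0.377), and it was not made by DESeq2 with the block (0.494). In the model without the block the sign turned to 0.05 without control replicate 3. In all 6 libraries the expected counts of Csf1r had decimals and added up to whole numbers, within 0.015 counts, with those of Hmgxb3, which overlaps it on the opposite strand, so reads had been divided between them and the level is uncertain. Hmgxb3 itself had a log2 fold change of 0.00 (adjusted p by edgeR = 0.994).

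Csf2ra (ENSMUSG00000059326, chr19:61223957-61228429, minus strand), the chain that binds GM-CSF, had 7.98, 10.4 and 12.9 CPM in control libraries and 9.49, 11.2 and 14.1 CPM with DKK1. The DKK1 value was higher in 3 of 3 same-numbered pairs, as in 22.3% of all tested genes, and by less than the spread between the replicates of a group. The log2 fold change was 0.14 (SE 0.19, adjusted p by edgeR = 0.867), and with the block 0.15 (SE 0.08, adjusted p = 0.311). Its sign turned without control replicate 1 (-0.0138) and without DKK1 replicate 3 (-0.0114).

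Csf2rb (ENSMUSG00000071713, chr15:78325752-78353847, plus strand), the signalling chain shared by the receptors of GM-CSF, interleukin 3 and interleukin 5, showed the largest change among the called members. Control libraries held 4.65, 4.85 and 12.02 CPM and DKK1 libraries 8.32, 9.48 and 16.8 CPM. Replicate 3 was the highest of each group, and control replicate 3 lay above DKK1 replicates 1 and 2. Within each same-numbered pair the DKK1 library was the higher one, as in 22.3% of all tested genes. Means were 7.17 ± 4.197 and 11.5 ± 4.62 CPM (SD, n = 3 each), or 0.68 on the log2 scale (SE 0.39, adjusted p by edgeR = 0.619). With the replicate block Csf2rb rose 1.66-fold (log2 fold change 0.73, SE 0.10, adjusted p by edgeR = 0.000408), and the call held with replicate 1, 2 or 3 left out of both groups (log2 fold changes of 0.69, 0.62 and 0.90). The limit given for such fits under Csf1 applies here too. Without replicate 3 of both groups it also passed in the model with no block (0.90, adjusted p = 0.0302). With 1 library left out and no block, the value ranged from 0.33 (without DKK1 replicate 3) to 1.25 (without control replicate 3).

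Expected counts of Csf2rb were not whole in 5 of the 6 libraries. Summed with those of Csf2rb2 (chr15:78282507-78305721, minus strand) they were 155, 222 and 412 in control libraries and 370, 467 and 561 with DKK1, whole numbers within 0.015 counts. The summed pair had a log2 fold change of 0.61 (adjusted p by edgeR = 0.646), and with the block of 0.66 (SE 0.09, adjusted p = 0.000309). Csf2rb2 alone stood at 2.22, 3.01 and 6.17 CPM in control libraries and 4.59, 3.97 and 7.50 CPM with DKK1. Its log2 fold change of 0.48 (SE 0.37) had an adjusted p of 0.727, and 0.0464 with the block, a call that was lost when any 1 of the 3 replicate numbers was left out (0.215, 0.162 and 0.0625, at log2 fold changes of 0.329, 0.575 and 0.682). With no block the log2 fold change was 0.17 without DKK1 replicate 3 and 0.99 without control replicate 3.

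Csf3r (ENSMUSG00000028859, chr4:126024550-126044440, plus strand), the receptor of G-CSF, had 4, 3 and 1 counts in control libraries and 4, 2 and 0 with DKK1. These lie at the detection floor, and a difference was not detectable at this depth (exact permutation test of CPM, two-sided, p = 0.5). The neutrophil markers Elane, Ly6g and Retnlg were at 0 in every library. S100a8 made up most of that list's sum, which was 0.842 to 1.72 CPM in control libraries and 2.68 to 4.12 CPM with DKK1. S100a8 itself had a log2 fold change of 1.49 (adjusted p by edgeR = 0.0705, and 0.000308 with the block).

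**Figure D2:**
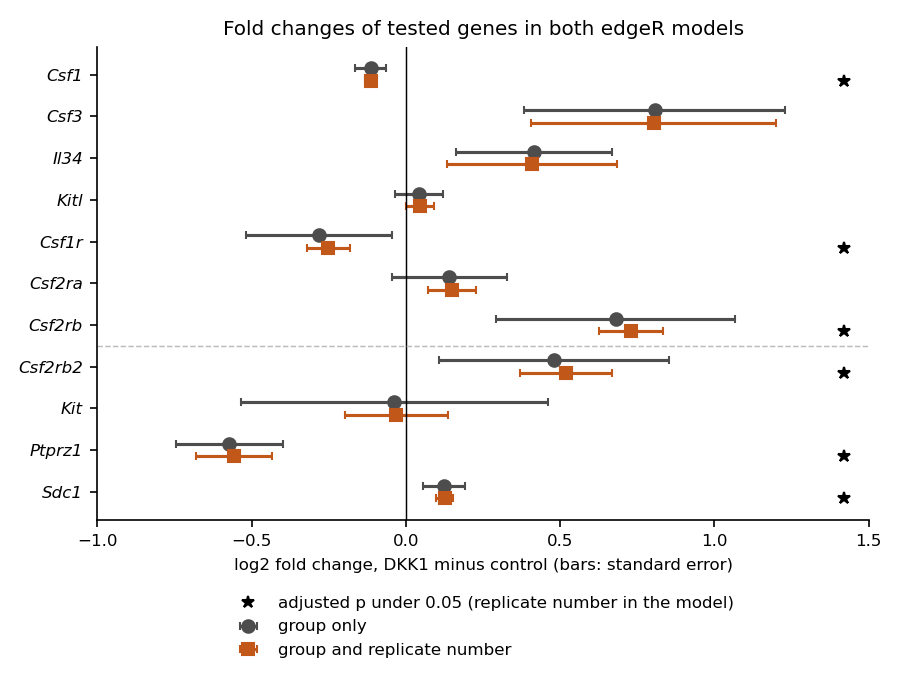
Log2 fold change of DKK1 against control, with its standard error, for the 7 tested members and, below the dashed line, 4 other receptors; circles are the edgeR model with the group alone, squares the model with the replicate number, and stars mark an adjusted p under 0.05 in the latter. Csf2rb (0.73) and Csf1 (-0.11) keep nearly the same fold change in both models while their error bars shrink with the replicate number.

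A list of 14 relatives held further receptors of these ligands together with ligands and receptors of related cytokines. Of these, 13 were matched and 5 tested (Csf2rb2, Kit, Ptprz1, Sdc1 and the interleukin 3 receptor chain Il3ra), with 0 edgeR calls for the group alone (1 had an unadjusted p under 0.05; DESeq2 and limma-voom called 0). With the block 2 were higher (Csf2rb2 and Sdc1) and 1 was lower (Ptprz1), beside 4.96% and 4.46% of all tested genes. DESeq2 with the block called none of the 3 (adjusted p-values of 0.438, 0.307 and 0.22). The median log2 fold change of the list was 0.06, beside -0.0006 over all tested genes. Ptprz1, a receptor phosphatase that also binds IL-34, had 5.98, 6.08 and 8.92 CPM in control libraries and 5.02, 4.15 and 4.99 CPM with DKK1. Every DKK1 library lay below every control library, which was so in 7.14% of all tested genes. Its log2 fold change was -0.57 (SE 0.17, adjusted p by edgeR = 0.25), and with the block -0.56 (SE 0.12, adjusted p = 0.0107). Sdc1, the proteoglycan syndecan-1 and also a reported binding partner of IL-34, had 98.5 ± 8.01 CPM in control libraries and 108 ± 7.55 with DKK1 (SD, n = 3 each; log2 fold change 0.12, adjusted p by edgeR = 0.608, and 0.0113 with the block). With the block and without replicate 2 of both groups, neither Ptprz1 (adjusted p = 0.108) nor Sdc1 (0.14) was called, and Ptprz1 was also lost without replicate 3 (0.122). With no block, the log2 fold change of Ptprz1 was -0.37 without control replicate 3 and that of Sdc1 0.06 without control replicate 1. Kit, the receptor of KITL, stood at 2.81 ± 1.66 and 2.78 ± 1.78 CPM (log2 fold change -0.04, adjusted p by edgeR = 0.993), highest in replicate 3 of both groups. Leaving out 1 library moved that value between -0.65 (without DKK1 replicate 3) and 0.54 (without control replicate 3), so it gives no direction. The 7 mast cell markers summed to 0.177 to 0.354 CPM in control libraries and 0.202 to 0.347 CPM with DKK1. Cpa3, Fcer1a and Tpsb2 were at 0 in every library, while Hdc had 1 to 7 counts. Il3, Il5ra and Epo had 0 counts in all 6 libraries.

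Levels can be compared between genes only per length, here as CPM per kilobase of the longest annotated transcript. Csf1 stood at 479.7 to 536 in the control libraries. Csf2ra (4.31 to 6.97), Kitl (4.91 to 6.02) and Csf1r (3.94 to 7.38) came next, and their control ranges overlap. Csf2rb (0.977 to 2.52), Il34 (0.418 to 0.630) and Csf3 (0.187 to 0.325) followed without overlap, and Csf2 (0.0442 to 0.166) and Csf3r (0.0127 to 0.0509) were last and overlapped each other. The order of the group means was the same with DKK1. With the merged exon length Csf2ra came below Kitl and Csf1r in control libraries and below Kitl alone with DKK1. The level of Csf1 relative to Il34, the other ligand of the same receptor, was thus 511 ± 28.7 against 0.506 ± 0.111 CPM per kilobase in control libraries (SD, n = 3 each).

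The receptor chains were set against Ptprc, which encodes the CD45 protein of all white blood cells, because most of them and the macrophage markers were highest in replicate 3 of both groups; this ratio was chosen after the values were seen. Ptprc stood at 10.1 ± 2.76 CPM in control libraries and 9.29 ± 3.64 with DKK1 (SD, n = 3 each; log2 fold change -0.14, adjusted p by edgeR = 0.917). Per Ptprc count there were 0.568, 0.546 and 0.904 Csf2rb counts in the control libraries and 1.18, 1.30 and 1.25 with DKK1. The groups did not overlap (two-sided exact permutation p = 0.1, which is the smallest such a design allows), and the DKK1 libraries were nearly equal. Csf2rb2 per Ptprc did not overlap either (0.270, 0.339 and 0.464 against 0.648, 0.545 and 0.556, exact p = 0.1). Of all tested genes other than Ptprc 2.11% had no overlap per Ptprc count, 1.65% with the higher values under DKK1. Of the 13 tested macrophage and monocyte markers other than Ptprc, treated alike, 4 were higher (Itgam, Adgre1, Fcer1g and Spi1) and 6 lower (C1qa, C1qb, C1qc, Fcgr1, Cx3cr1 and Mrc1) without overlap, and 3 overlapped (Cd68, Lyz2 and Tyrobp). Spi1 overlapped per summed marker (exact p = 0.3). Csf2ra per Ptprc was higher in 3 of 3 pairs but overlapped between the groups (0.973, 1.17 and 0.970 against 1.34, 1.53 and 1.05, exact p = 0.2). Csf1r per Ptprc was 2.44, 2.08 and 2.61 in control libraries and 2.64, 2.30 and 1.86 with DKK1 (exact p = 0.7), without a common direction over the pairs. Per summed macrophage marker, Csf1r was 0.0464, 0.0371 and 0.0400 in control libraries and 0.0412, 0.0336 and 0.0284 with DKK1, lower in 3 of 3 pairs but overlapping (exact p = 0.3). By the same measure Csf2rb was 0.0115 ± 0.00214 in control libraries and 0.0188 ± 0.000389 with DKK1 (SD, n = 3 each, exact p = 0.1). Lyz2 made up most of the summed markers, with 340, 402 and 696 of 431, 498 and 868 CPM in control replicates 1 to 3. The summed measure is thus mainly a ratio to Lyz2.

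**Figure D3:**
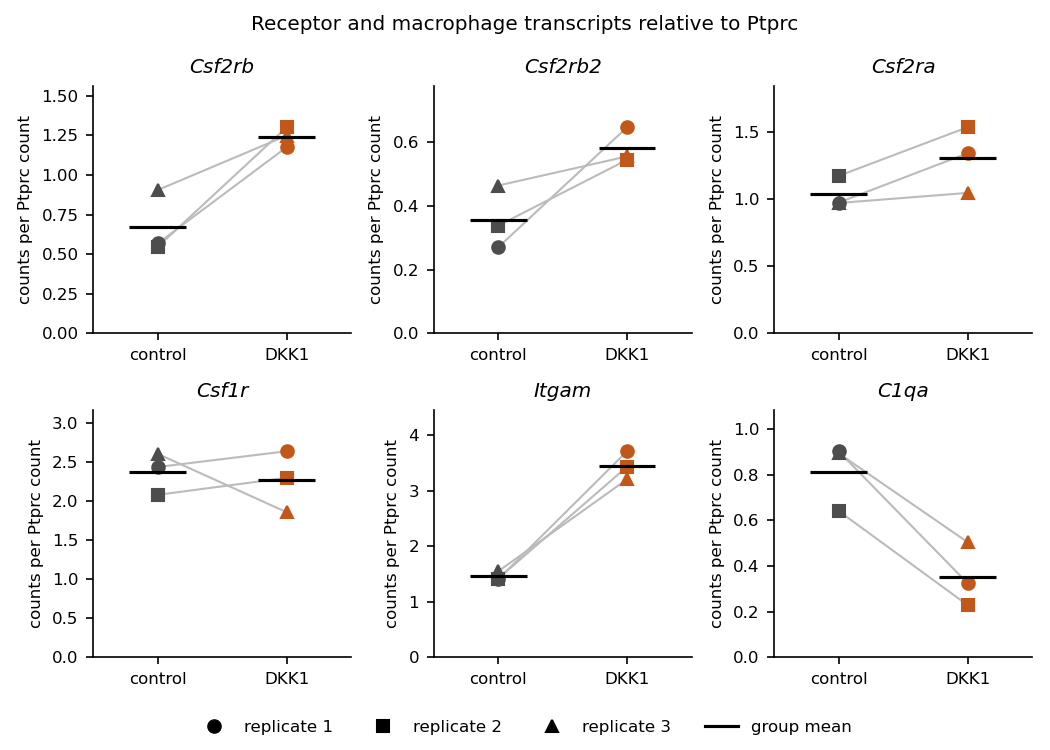
Counts of receptor and macrophage transcripts per Ptprc count in each library, on linear axes that start at 0, with symbols for the replicate number, grey lines joining the same number and black bars for the group means. Csf2rb, Csf2rb2 and Itgam are higher in every DKK1 library than in any control library, C1qa is lower in every one, and Csf1r overlaps.

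The macrophage and monocyte markers moved in both directions beside the receptors. Of 14 tested, 0 were called with the group alone (edgeR; 6 had an unadjusted p under 0.05, and DESeq2 and limma-voom called 0), and with the block 2 were higher and 6 lower. Over all tested genes 0.895% were called with the group alone, and 4.96% were higher and 4.46% lower with the block. These shares are at adjusted p, and the count of 6 at an unadjusted p has none beside it. Itgam, which encodes the CD11b integrin, stood at 11.5, 12.6 and 20.6 CPM in control libraries and 26.3, 24.99 and 43.2 CPM with DKK1, a difference of 1.07 on the log2 scale (SE 0.26, adjusted p by edgeR = 0.136, and SE 0.06 and 7.23e-08 with the block). Adgre1, the F4/80 antigen, had a log2 fold change of 0.54 with the block. The complement genes C1qa (-1.33), C1qb (-1.46) and C1qc (-1.41), the Fc receptor gene Fcgr1 (-1.58), the mannose receptor gene Mrc1 (-0.45) and the chemokine receptor gene Cx3cr1 (-1.08) were the 6 called lower in that model. Leaving out replicate 2 of both groups ended only the call of Cx3cr1 among these 8, and DESeq2 with the block called 5, without Adgre1, Cx3cr1 and Fcgr1. The part of the macrophages in the values of Csf2rb and Csf1r was not tested.

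The 26 genes of signalling below these receptors were all tested, and edgeR called 0 of them with the group alone (4 had an unadjusted p under 0.05; DESeq2 called 2 and limma-voom 0). Their median log2 fold change was 0.01, beside -0.0009 over all tested genes. Over all tested genes edgeR called 0.895% with the group alone, DESeq2 2.04% and limma-voom 0.888%. The count of 4 at an unadjusted p has no such share beside it. With the block 3 were higher and 1 was lower, beside 4.96% and 4.46% of all tested genes. Socs3, a feedback inhibitor that binds CSF3R and the interleukin 6 receptor, stood at 39.0, 49.0 and 43.6 CPM in control libraries and 66.5, 76.4 and 54.8 CPM with DKK1. Its groups did not overlap, as in 16.5% of all tested genes in either direction. The log2 fold change of Socs3 was 0.58 (SE 0.12, adjusted p by edgeR = 0.0918, and 2.73e-05 with the block). Socs1 (0.46, adjusted p = 0.0185 with the block) and the kinase gene Pim1 (0.26, 0.00332) were also higher and Socs2 (-0.17, 0.00876) was lower. DESeq2 with the block did not call Socs1 (0.509) or Socs2 (0.214). Without replicate 2 of both groups these 3 calls were lost and that of Socs3 was kept; Socs1 was also lost without replicate 1. Cish, a target of the STAT5 factors that act below GM-CSF and interleukin 3, had 9.40 ± 0.585 and 9.62 ± 1.01 CPM (SD, n = 3 each; log2 fold change 0.03, adjusted p by edgeR = 0.97). Its sign turned without control replicate 2 (-0.00808), without DKK1 replicate 3 (-0.0458) and without replicate 3 of both groups (-0.0653).

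Of 14 genes that control the decay of cytokine mRNAs, all tested, edgeR called 1 with the group alone, and its direction was up (0.895% of all tested genes were called; DESeq2 called 2 of the list and limma-voom 1). Zc3h12a, which encodes the RNase regnase-1, stood at 16.4, 14.1 and 16.3 CPM in control libraries and 24.2, 21.4 and 21.6 CPM with DKK1. The groups did not overlap, as in 16.5% of all tested genes in either direction. The log2 fold change of Zc3h12a was 0.52 (SE 0.08, adjusted p by edgeR = 0.0272, and 7.38e-05 with the block). Without the block, leaving out control replicate 1 (adjusted p = 0.0789), control replicate 2 (0.0992), DKK1 replicate 1 (0.127), DKK1 replicate 2 (0.0729) or replicate 3 of both groups (0.0582) ended this call, at log2 fold changes of 0.45 to 0.58. With the block, which called 9.42% of all tested genes, 3 of the 14 were higher, Zc3h12a, Zfp36 and Zfp36l1, and 1 was lower, Zfp36l2 (log2 fold change -0.08, adjusted p = 0.0278), the last of which was lost without replicate 2 or replicate 3 of both groups and by DESeq2 with the block (0.31). Zfp36, which encodes tristetraprolin, the protein that binds ATTTA pentamers such as those printed for Csf2, had 61.6, 61.9 and 63.7 CPM in control libraries and 73.4, 84.1 and 74.7 CPM with DKK1. Its log2 fold change was 0.31 (SE 0.06, adjusted p by edgeR = 0.0568, and 0.000246 with the block). Zfp36l1 had a log2 fold change of 0.32 with the block (adjusted p = 3.03e-05), and the median of the list was 0.04.

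The last list, called inducers of Csf genes here, held 30 genes of inflammatory signalling through which Csf genes are induced in fibroblasts. It holds cytokines, their receptors and adaptors, NF-kB factors with the inhibitor gene Nfkbia, and factors of the AP-1, C/EBP, ETS and NFAT families. Of 28 tested, edgeR called 2 higher and 0 lower with the group alone (13 had an unadjusted p under 0.05; DESeq2 called 7 and limma-voom 2), and 14 higher and 0 lower with the block. Over all tested genes edgeR called 0.697% higher without the block and 4.96% with it. In either direction DESeq2 called 2.04% and limma-voom 0.888%. The count of 13 at an unadjusted p has no such share beside it. The median log2 fold change was 0.18, beside -0.0009 over all tested genes, and 26 of the 28 values were above 0. The list was chosen with earlier results of these data known, so these numbers only describe it. Nfkbiz, which encodes the NF-kB cofactor IkB-zeta, stood at 87.5, 91.6 and 82.2 CPM in control libraries and 125, 120.3 and 107 CPM with DKK1 (log2 fold change 0.43, SE 0.07, adjusted p by edgeR = 0.0276). Junb, an AP-1 subunit, stood at 163, 181 and 176 CPM in control libraries and 219, 249 and 226 CPM with DKK1 (log2 fold change 0.41, SE 0.06, adjusted p by edgeR = 0.02). In both genes every DKK1 library exceeded every control library, while 16.5% of all tested genes had no overlap in either direction. Each call without the block was lost when control replicate 1, 2 or 3 or DKK1 replicate 1 or 2 was left out, with adjusted p-values of 0.0673 to 0.128 for Nfkbiz and 0.0502 to 0.0864 for Junb, and that of Junb also without replicate 3 of both groups (0.0582). The log2 fold changes in those fits were 0.38 to 0.47 for Nfkbiz and 0.35 to 0.45 for Junb.

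Called higher with the block were also the AP-1 gene Fos (log2 fold change 0.73), the C/EBP genes Cebpd (0.48) and Cebpb (0.40), the NF-kB inhibitor gene Nfkbia (0.31) and the NF-kB subunit gene Nfkb1 (0.20). The interleukin 1 receptor chains Il1r1 (0.29) and Il1rap (0.17), Il17ra (0.17) with its adaptor gene Traf3ip2 (0.26), the TNF receptors Tnfrsf1a (0.13) and Tnfrsf1b (0.19), and Ets2 (0.26) completed the 14. Of these, 9 kept their call with any 1 replicate number left out of both groups, and Il17ra, Nfkb1, Tnfrsf1a, Tnfrsf1b and Traf3ip2 lost it in at least 1 case. DESeq2 with the block, which called 558 genes in all, called 10 of the 14. It did not call Il1rap (adjusted p = 0.0682), Il17ra (0.418), Tnfrsf1b (0.135) and Traf3ip2 (0.286). The cytokines themselves were scarce. Il1b had 0, 0 and 6 counts in control libraries and 7, 13 and 13 with DKK1 and was not tested, Il17a had 0 in every library, and Il1a had a log2 fold change of 0.93 (adjusted p by edgeR = 0.574, and 0.108 with the block). In the same libraries and with the block, Csf1 was lower (log2 fold change -0.11). Csf3 (0.80), Il34 (0.41) and Kitl (0.04) had values above 0 and were not called, and Csf2 was at the detection floor. A link between the inducers and these values was not tested.

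**Figure D4:**
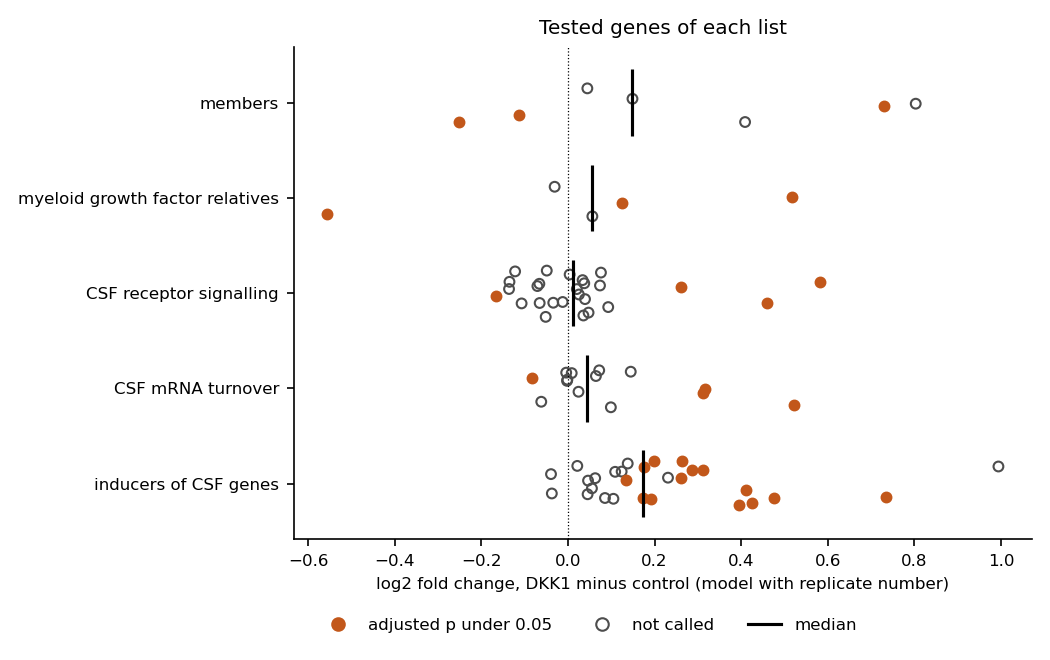
Log2 fold change of DKK1 against control in the edgeR model with the replicate number, 1 point per tested gene, for the members and the 4 lists of related genes; filled points have an adjusted p under 0.05 and black bars are medians. The inducers of Csf genes have 14 filled points, all above 0, and a median of 0.17, while the other lists have filled points on both sides.

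Over the 6 libraries the genes whose log2(CPM + 0.5) was most like that of each tested ligand, by Pearson's r among the 13021 genes averaging 1 CPM or more (13022 for Csf3), were Capzb (0.995) and Zbtb7b (0.994) for Csf1. For Kitl they were Tspyl5 (0.991) and Ccdc106 (0.989), for Il34 Ogfod3 (0.985) and Smndc1 (0.981), and for Csf3 Bet1 (0.990) and Hprt (0.985). These are the highest of all correlations computed, over 6 points that share group, depth and replicate number, and those of Csf3 and Il34 rest on few counts.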

How the data were processed

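RNA was sequenced from 3 control and 3 DKK1-treated mouse lung fibroblast samples. The deposited table holds expected counts per gene, which divide reads that match several genes, and 9.62% to 10.6% of each library's values were not whole (tolerance 0.005). The submitters' processing notes name STAR, RSEM and edgeR 4.2.1 and the builds GRCm38 and mm10, with no settings; the annotation release and strandedness are not given in the sources used here. No values had been scaled, since library totals differed.

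Identifiers were matched to symbols (45143 of 45706, 98.8%; Flt3l of the lists was not matched). Coordinates, overlaps and coding sequences came from GENCODE M21 (GRCm38), promoters from RefSeq (GRCm38.p6). Rounded expected counts went into edgeR 4.0.16 under R 4.3.3: filterByExpr (minimum count 10), TMM scaling, which corrects totals for composition, quasi-likelihood F test, two-sided, Benjamini-Hochberg adjustment over all 14635 tested genes, call at an adjusted p under 0.05. Log2 fold changes are DKK1 minus control, with approximate standard errors from the F statistic. The edgeR fit with the group alone was tested on simulated data without a replicate effect, and the fit with the block was not. Floors of 3 counts cover counting error only, since reads copied by PCR are not separate molecules.

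Replicate numbers 1 to 3 stand in the sample titles of both groups, without a word on their meaning. Same-numbered libraries deviated together from their group means (correlations across genes of 0.27, 0.23 and 0.41), so the numbers were taken to pair the libraries and the model with the number as a block is given where it changes a call; the biological coefficient of variation was 6.99% without it and 2.30% with it. The members and lists were chosen with earlier results of these data known, so their counts are descriptions. Genes named were the 9 members, list genes called in either model, Csf2rb2, Kit, Ptprz1, Sdc1, Zfp36, Zc3h12a, Nfkbiz, Cebpb, Cebpd, Socs3 and Cish, and the 2 genes most like each tested ligand; marker genes, Ptprc, Hmgxb3 and further genes of the lists were named after their values were seen. Single values were compared with exact permutation tests. Alternatives were DESeq2 1.42.0, limma-voom (limma 3.58.1), other scalings and filters, unrounded counts, the block, and leaving out libraries.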

Additional observations from a re-analysis of the deposited data

How the results depend on the processing

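The number of called genes (131) depended most on the block (1379). It was 329 with no low-count filter, 289 with DESeq2 and 558 with DESeq2 and the block, and 36 to 139 when 1 library was left out (149 without replicate 3 of both groups). Alternatives chosen after seeing the data gave, with the block, 1377 genes (Csf2rb and Csf2rb2 summed), 1806 (no low-count filter), 1381 (DESeq2 size factors), 1374 (library totals), and 1312, 612 and 1059 without replicate 1, 2 or 3 of both groups. Called members numbered 0, and 3 with the block, also when it was combined with summing, no filter, size factors, totals or the loss of replicate 1. They were 2 with the block without replicate 2 or 3 of both groups, 2 with DESeq2 and the block, and 1 without replicate 3 of both groups in the model with no block. They were 0 under every other alternative. In the same order as the blocked alternatives above (none, no filter, size factors, totals), the log2 fold change was -0.114, -0.111, -0.115 and -0.108 for Csf1, -0.252, -0.249, -0.254 and -0.247 for Csf1r, and 0.729, 0.73, 0.727 and 0.734 for Csf2rb, each called. DESeq2 with the block called Csf1 (-0.115) and Csf2rb (0.749), and the summed pair with the block gave 0.659. Without replicate 1, 2 or 3 of both groups the blocked values were -0.0918, -0.122 and -0.126 for Csf1 and 0.691, 0.618 and 0.903 for Csf2rb, and -0.318, -0.302 and -0.126 for Csf1r, of which only the first was called. Without replicate 3 and with no block Csf2rb was called at 0.901.

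Signs turned for Kitl (-0.0379 without control replicate 2, -0.00621 without DKK1 replicate 1, -0.000864 with the block and without replicate 2), Csf1r (0.0475 without control replicate 3), Csf2ra (-0.0138 without control replicate 1, -0.0114 without DKK1 replicate 3), Cish (-0.00808 without control replicate 2, -0.0458 without DKK1 replicate 3, -0.0653 without replicate 3, and -0.066 with the block and without replicate 3) and Kit (0.536 without control replicate 3, 0.268 and 0.136 without DKK1 replicate 1 or 2, 0.05 with the block and without replicate 1). Cish and Kit were the only 2 of the 27 named list genes whose sign turned. When 1 library was left out, log2 fold changes ranged from -0.157 to -0.0829 for Csf1, -0.455 to 0.0475 for Csf1r, -0.0138 to 0.308 for Csf2ra, 0.326 to 1.25 for Csf2rb, 0.556 to 1.15 for Csf3, 0.289 to 0.619 for Il34, -0.0379 to 0.108 for Kitl, -0.0458 to 0.0982 for Cish and -0.65 to 0.536 for Kit. The cause of these shifts was not tested. Depth limits Csf2, Csf3r, Csf3 and Il34 most. Csf2 and Csf3r had no fit under the low-count filter. Csf3 had none with at least 10 counts required in every library, and none with the block and without replicate 2 of both groups.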
